A study of Rattus norvegicus with 12 samples.

Results

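The BCL2 family was followed through the response of CC531 cells, a rat colon carcinoma line grown in culture, to butyrate and to aspirin. Of 9 gene symbols looked for (Bcl2, Bcl2l1, Bcl2l11, Mcl1, Bax, Bad, Bid, Bak1 and Bok), 7 were named alone by at least 1 probe set of the expression array, and these gave 17 of its 8740 probe sets that are not controls. Mcl1, which encodes a pro-survival relative of Bcl2, was named by none, and the 3 probe sets that name Bax, a pore-forming member, each name 2 genes, so neither gene was measured here. Of the 17 probe sets 13 passed a filter on dim signals and were tested, among 6118 tested in all. Total RNA of cells given 4.5 mM butyrate and of cells given 3 mM aspirin was measured at 2, 6, 12, 16 and 24 h, and that of untreated cells at 2 and 24 h, with 1 array for each of these 12 conditions. The hours of a drug stand in as its replicates, and the labels do not say that arrays came from separate cultures, so a p-value reflects the scatter among these arrays and no more. All groups are 1 cell line, and how they were cultured and dosed is not given in the sources used here.

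Proteins of this family set whether the outer membrane of mitochondria stays closed. Pro-survival members such as BCL2 and BCL-XL (the main product of Bcl2l1) hold the pore formers BAX and BAK (the product of Bak1) in check, and BH3-only members such as BIM (the product of Bcl2l11), BAD and BID bind the pro-survival members or act on the pore formers. When the membrane opens, cytochrome c and SMAC (the product of Diablo) leave mitochondria and caspases are switched on. In colon epithelium, where bacteria of the gut make butyrate, cells at the surface are lost and replaced throughout life.

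Values are the deposited intensities, on a linear scale on which 21.5 to 25.5% of values per array were negative. An intensity under 90.91 was raised to that floor before log2 was taken, so values under it have no order and no scatter in the tests. The 2% trimmed means of the arrays lay between 991.6 and 994.7, and the number of arrays, rather than a count, limits the precision. In butyrate against untreated cells 716 of the 6118 probe sets passed limma's test (two-sided, Benjamini-Hochberg adjusted p under 0.05), in aspirin against untreated cells 9, and in butyrate against aspirin 1540. The cells carried epithelial markers: 7 of the 9 measured lay above the floor on every array, among them Krt8 (12225 to 16015) and Epcam (8234 to 16911). The intestinal factor Cdx1 was at the floor on all 12 arrays and Krt20 (5.2 to 251.1) on 6. Of the markers of other cell types, the fibroblast list (8 of 8 genes on the array) summed to 6137 to 8154 with butyrate, 6201 to 9036 with aspirin and 8726 to 9228 untreated, and included Vim, at 2286 to 4349 over the 12 arrays. Of these 8 genes 5 lay above the floor on every array, among them Acta2 (1019 to 4420). The blood list (5 of 9 genes, Cd8a at the floor throughout) summed to 576 to 982 with butyrate, 562 to 1080 with aspirin and 581 to 1391 untreated. The endothelial list (3 of 5, Vwf at the floor throughout) summed to 304 to 353 with butyrate, 273 to 359 with aspirin and 365 to 442 untreated, and the hepatocyte list (5 of 5) to 492 to 1957 with butyrate, 513 to 682 with aspirin and 594 to 628 untreated. The part of these markers in the results below was not tested. In RNA from a whole culture, fewer cells that express a gene and less RNA of it per cell cannot be told apart.

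The promoters printed here are those of the genes whose several probe sets carried most of the differences described below, Bcl2l11 and Bcl2l1. They come from RefSeq on the rat build GRCr8, whose table held 6 of the 7 measured members. The Bcl2l11 window is the 250 bases before the annotated start, chr3:135819792-135820041 on the plus strand, and that of Bcl2l1 the 181 bases that lie before the annotated gene, chr3:161764845-161765025 on the minus strand. For Bcl2l1 the RefSeq table listed 4 starts, and only this window was searched, so its motif counts describe that window alone. Capitals mark matches to the motifs searched on both strands.
Bcl2l11: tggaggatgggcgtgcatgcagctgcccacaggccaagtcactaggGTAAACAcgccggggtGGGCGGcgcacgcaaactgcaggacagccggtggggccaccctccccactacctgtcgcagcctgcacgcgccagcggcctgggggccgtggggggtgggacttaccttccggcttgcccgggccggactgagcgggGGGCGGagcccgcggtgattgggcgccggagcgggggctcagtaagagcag
Bcl2l1: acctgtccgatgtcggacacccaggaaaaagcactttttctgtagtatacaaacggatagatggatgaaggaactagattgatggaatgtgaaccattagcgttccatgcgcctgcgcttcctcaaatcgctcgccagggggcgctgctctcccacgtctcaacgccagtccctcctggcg
The Bcl2l11 window was 72% G and C and held 2 matches to the GC box GGGCGG, which 30.5% of 33469 promoter windows of this length hold at least once, and 1 match to the FOXO core GTAAACA, which 3.21% hold. It held no match to the E-box CACGTG, found in 5.59%. The Bcl2l1 window was 53.6% G and C and held 0 matches to the 3 motifs, which 21.1%, 2.49% and 3.64% of promoters hold in a window of that length (GC box, FOXO core and E-box). The motifs do not overlap one another, and a match describes letters only.

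Against untreated cells, no member passed the test with either drug. The nearest with butyrate were a lower signal of 1 probe set of Bcl2l1, the gene of BCL-XL, and a higher signal of Bad. With aspirin the nearest was a lower signal of AF065433_at of Bcl2l11 (adjusted p = 0.256, limma). Of the 13 tested probe sets 0 passed at an adjusted p under 0.05 with butyrate, where 11.7% of all probe sets did, and 0 with aspirin, where 0.147% did. At an unadjusted p under 0.05 there were 3 of 13 with butyrate (23.1%, against 28.8% of all probe sets) and 3 of 13 with aspirin (23.1%, against 10.7%). The median change of the members was 0.02 log2 with butyrate and 0.06 with aspirin, beside 0.00085 and -0.04 over all probe sets tested. The 2 drugs were set against the same 2 untreated arrays, so their changes share that part of their error.

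**Figure D1:**
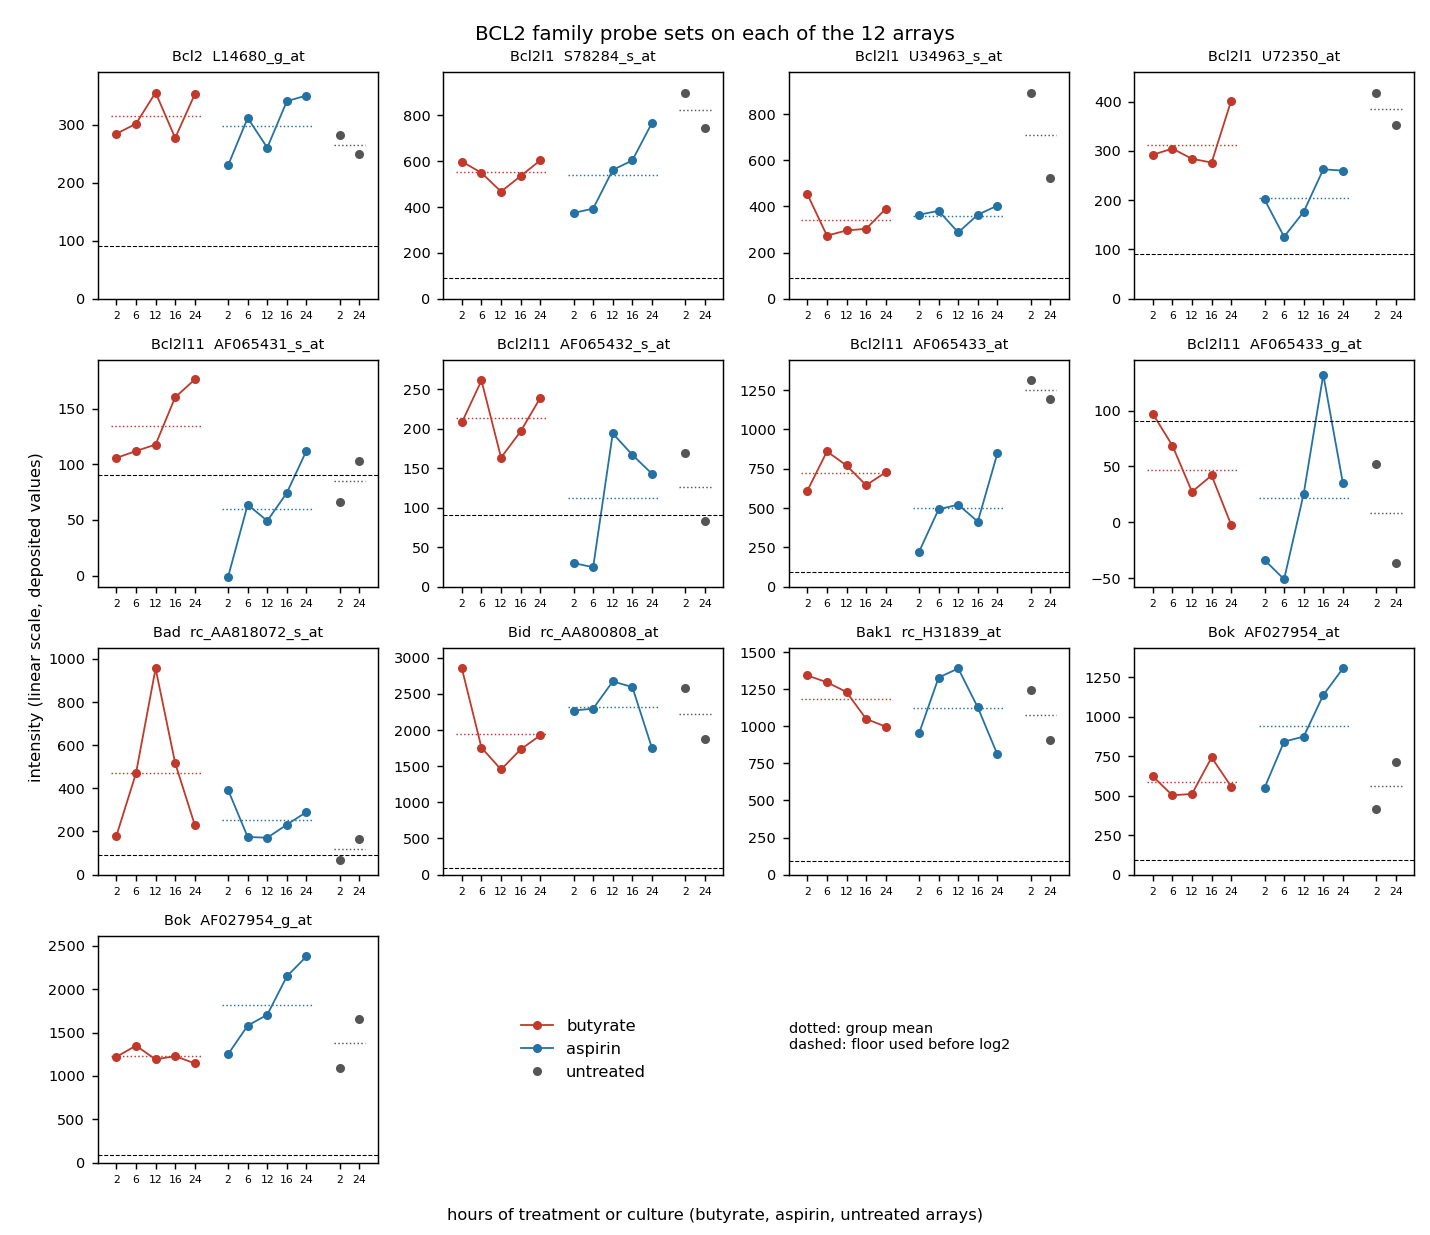
Deposited intensity (linear scale) of the 13 tested BCL2 family probe sets on each array, with hours along each axis: 5 butyrate, 5 aspirin and 2 untreated arrays (dotted lines are group means, the dashed line is the floor of 90.91). Bok climbs over the hours of aspirin to 2379 at 24 h on its brighter probe set, while the butyrate arrays stay between 1144.8 and 1349.1.

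Of the pro-survival genes, Bcl2 showed no difference beyond its spread with either drug. Its tested probe set L14680_g_at read 284.9, 302.1, 356, 277.5 and 353 with butyrate (2, 6, 12, 16 and 24 h, the order used throughout), 230.3, 312.1, 260.8, 341.1 and 350.9 with aspirin, and 282.3 and 249.3 in untreated cells (2 and 24 h). The groups overlapped, and the log2 change was 0.24 ± 0.29 (SE, 95% interval -0.38 to 0.85, adjusted p = 0.639, limma) with butyrate and 0.15 with aspirin (adjusted p = 0.906). The other 2 probe sets of Bcl2 were under the floor on every array, L14680_at at -37.4 to 44.3 and S74122_s_at at -1046.4 to -384.1, and were not tested.

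Bcl2l1 had 4 probe sets, and its 3 tested ones all read lower on average with either drug than in untreated cells, none of them past the test. U34963_s_at read 452.8, 273.6, 295.9, 303.2 and 389.8 with butyrate, 364.4, 380.8, 287.4, 364.1 and 403.6 with aspirin, and 893.8 and 524.4 in untreated cells. All 10 treated arrays lay below both untreated arrays. The change was -1.02 ± 0.32 log2 with butyrate (SE, 95% interval -1.71 to -0.34, adjusted p = 0.0525, limma) and -0.94 ± 0.32 with aspirin (95% interval -1.62 to -0.25, adjusted p = 0.381, limma). With another floor, quantile normalization, median centring or no variance trend the butyrate change passed (adjusted p = 0.0248 to 0.0485, limma). It rested on the untreated 2 h array: without it the butyrate change was -0.64 (adjusted p = 0.276), and without the untreated 24 h array it was -1.41 (adjusted p = 0.029). It also passed without the butyrate array of 2 h (-1.13, adjusted p = 0.0208), and the aspirin change passed without the untreated 24 h array (-1.32, adjusted p = 0.049).

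S78284_s_at, the brightest probe set of Bcl2l1, read 598.4, 549, 467.1, 535.1 and 603.5 with butyrate, 374.1, 393, 561.6, 603.2 and 766.7 with aspirin, and 899.2 and 745.4 in untreated cells. The butyrate arrays all lay below the untreated ones, while the aspirin array of 24 h lay between them. The butyrate change of -0.58 ± 0.31 log2 (SE, 95% interval -1.25 to 0.09, adjusted p = 0.241, limma) and the aspirin change of -0.65 ± 0.31 (adjusted p = 0.479, limma) did not pass. U72350_at read 292.3, 304.7, 284, 276.4 and 402.1 with butyrate, 201.4, 125.8, 176.4, 262.7 and 260 with aspirin, and 418.5 and 351.9 in untreated cells. Here the aspirin arrays lay below every other array and the butyrate array of 24 h lay between the untreated ones, with changes of -0.31 log2 with butyrate (adjusted p = 0.593, limma) and -0.95 ± 0.33 with aspirin (95% interval -1.67 to -0.24, adjusted p = 0.381, limma). The fourth, U72349_at, was under the floor on all 12 arrays, at -340.7 to -68.7 with butyrate, -364.9 to -163.8 with aspirin, and 74.9 and 80.2 untreated, and was not tested. Across the 12 arrays the 3 tested probe sets correlated with one another at r = 0.644, 0.70 and 0.455, over arrays that share treatments and scaling.

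**Figure D2:**
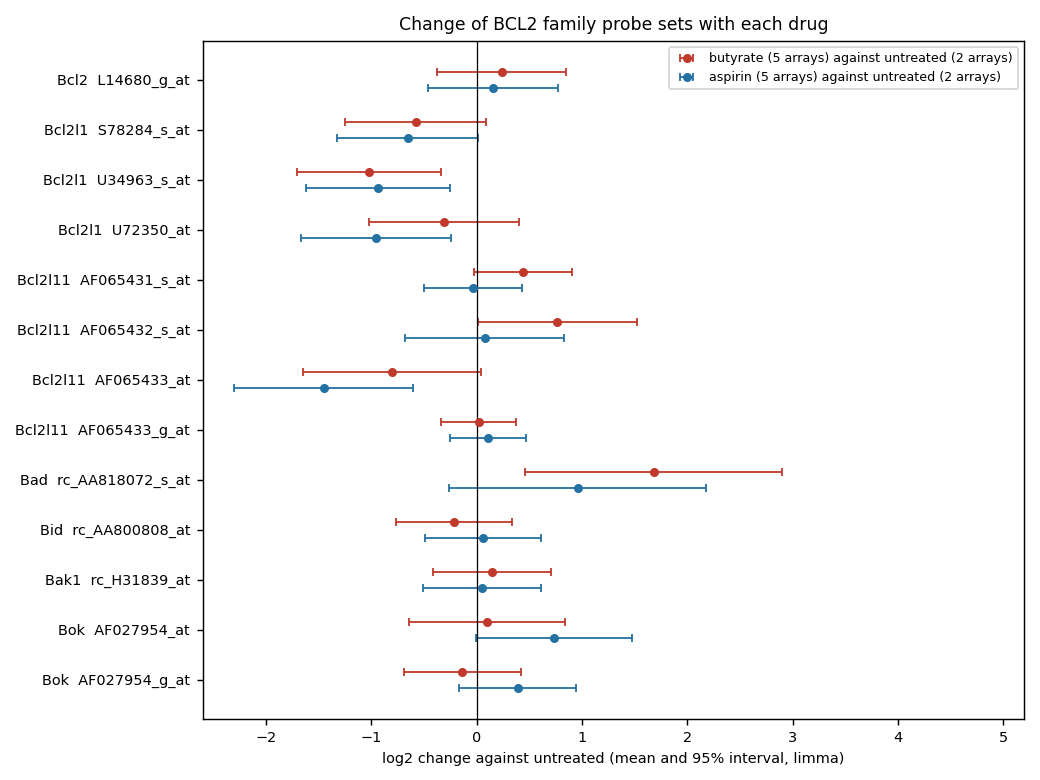
Mean log2 change of each tested probe set, butyrate (5 arrays) and aspirin (5 arrays) against untreated (2 arrays), with limma's 95% intervals. The intervals of U34963_s_at of Bcl2l1 lie below 0 for both drugs. Those of AF065433_at of Bcl2l11 and U72350_at of Bcl2l1 lie below 0 for aspirin. Those of Bad and of AF065432_s_at of Bcl2l11 lie above 0 for butyrate. No probe set passed after adjustment over all 6118.

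The BH3-only genes gave less uniform results. Bcl2l11, the gene of BIM, was measured by 4 probe sets, with r between pairs of -0.305 to 0.498 over 12 arrays. Many values were tied at the floor: on 10 of 12 arrays for AF065433_g_at, 5 for AF065431_s_at and 3 for AF065432_s_at. The negative r were those with AF065433_g_at, so a low r need not mean that probe sets disagree. Its brightest, AF065433_at, read 610, 859.5, 770.4, 644.7 and 727.2 with butyrate, 221, 492.1, 521.2, 413.5 and 847.9 with aspirin, and 1310.5 and 1194.2 in untreated cells. All treated arrays lay below both untreated ones, the aspirin array of 2 h furthest. The change was -0.80 ± 0.40 log2 with butyrate (SE, 95% interval -1.65 to 0.05, adjusted p = 0.198, limma) and -1.45 ± 0.40 with aspirin (95% interval -2.30 to -0.60, adjusted p = 0.256, limma).

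AF065431_s_at, another Bcl2l11 probe set, was dim and went the other way with butyrate, reading 105.9, 112.1, 117.9, 160.5 and 176.5, against 66.5 and 103.5 in untreated cells, which lay below all 5. With aspirin it read -1.2, 63.8, 49.2, 74.5 and 112.4, so 4 of 5 aspirin arrays were at the floor. Its butyrate change was at least 0.44 log2 (adjusted p = 0.199, limma), and that with aspirin -0.03 (adjusted p = 1). AF065432_s_at read 208, 261.1, 163.4, 196.7 and 239.1 with butyrate, 29.9, 24.6, 194.1, 166.9 and 143 with aspirin, and 169.5 and 83.3 in untreated cells, where the groups overlapped. Its butyrate change was at least 0.76 ± 0.35 log2 (SE, 95% interval 0.01 to 1.52, adjusted p = 0.168, limma) and its aspirin change 0.08 (adjusted p = 0.989). Both butyrate values are bounds, since 1 untreated array of each probe set was at the floor. That of AF065432_s_at was 1.21 without the untreated 2 h array, 0.32 (adjusted p = 0.721) without that of 24 h, and 0.24 with the floor at 182.2. AF065433_g_at lay above the floor only on the butyrate array of 2 h (97) and the aspirin array of 16 h (132.1), and its changes were 0.02 log2 with butyrate and 0.11 with aspirin (adjusted p = 0.972 and 0.879).

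Bad, whose product is kept from BCL-XL by phosphorylation and 14-3-3 proteins, had the largest butyrate change of the family in log2 terms, and a wide error. Its tested probe set rc_AA818072_s_at read 179.8, 469.9, 955.5, 516.6 and 230.2 with butyrate, 392.7, 174.4, 171, 231.6 and 290.2 with aspirin, and 69.7 and 167 in untreated cells. The butyrate arrays peaked at 12 h, and every treated array lay above both untreated ones. The change was at least 1.68 ± 0.57 log2 with butyrate (SE, 95% interval 0.46 to 2.90, adjusted p = 0.0692, limma) and at least 0.96 ± 0.57 with aspirin (adjusted p = 0.575, limma), bounds because the untreated 2 h array was at the floor. With 1 array left out the butyrate change lay between 1.24 (adjusted p = 0.379, without the untreated 2 h array) and 2.12, and it passed in 1 of 12 such fits (without the butyrate array of 2 h, 1.96, adjusted p = 0.0203). It was 1.12 with the floor at 182.2 and 0.72 (adjusted p = 0.583) on the 2 h and 24 h arrays alone. The other probe set of Bad, AF003523_s_at, was under the floor throughout (-205.9 to 49.7) and was not tested.

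Bid, which is cut by caspases downstream of death receptors, read 2852.7, 1756.7, 1454.5, 1732.7 and 1927.1 with butyrate, 2270.6, 2296.6, 2673.1, 2595.3 and 1752.6 with aspirin, and 2578 and 1875.5 in untreated cells (rc_AA800808_at). The groups overlapped, with changes of -0.22 ± 0.26 log2 with butyrate (SE, 95% interval -0.77 to 0.34, adjusted p = 0.638, limma) and 0.06 with aspirin (adjusted p = 0.985).

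Of the pore formers, Bak1 read 1342.2, 1296.7, 1230.8, 1049.4 and 997.6 with butyrate, 952, 1328.5, 1389.7, 1126.8 and 809.7 with aspirin, and 1245.9 and 905.6 in untreated cells (rc_H31839_at). Its groups overlapped as well, at 0.15 ± 0.26 log2 with butyrate (SE, 95% interval -0.41 to 0.71, adjusted p = 0.765, limma) and 0.05 with aspirin (adjusted p = 0.998). Bok, which can open the mitochondrial membrane without the other pore formers, had 2 probe sets that followed each other (r = 0.918 over 12 arrays). AF027954_g_at read 1220.1, 1349.1, 1191, 1227.9 and 1144.8 with butyrate, 1250.3, 1580, 1706, 2148.2 and 2379 with aspirin, and 1093.3 and 1659.8 in untreated cells. AF027954_at read 621.5, 501.5, 511, 741.4 and 557.2 with butyrate, 548.6, 841.5, 873.6, 1136.2 and 1304.5 with aspirin, and 412.2 and 713.5 in untreated cells. On both, the aspirin arrays climbed with the hours, the butyrate arrays did not, and the untreated array of 24 h was higher than that of 2 h. Averaged over the hours, the changes against untreated cells did not pass: -0.14 and 0.10 log2 with butyrate (adjusted p = 0.778 and 0.895, limma) and 0.39 and 0.73 with aspirin (adjusted p = 0.63 and 0.472), for AF027954_g_at and AF027954_at in that order.

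Read without a model, all 5 butyrate arrays lay outside the untreated range on 1 side in 5 of 13 tested probe sets (38.5%), against 27.8% of all probe sets tested. They were above it for Bad and AF065431_s_at of Bcl2l11 (14.7% of all probe sets were above), and below it (13.2% of all) for S78284_s_at and U34963_s_at of Bcl2l1 and AF065433_at of Bcl2l11. For aspirin it was 4 of 13 (30.8%), against 11.6% of all: Bad above (3.81% of all), and U34963_s_at, U72350_at and AF065433_at below (7.78% of all). With the floor applied, the untreated arrays themselves differed by -0.90 to 0.88 log2 over the 13 probe sets (24 h minus 2 h). None differed by 2-fold on that scale, against 16.5% of all probe sets that did. Both extremes were set by the floor, under which 1 untreated array lay. As deposited, AF065432_s_at of Bcl2l11 read 169.5 and 83.3 (2 and 24 h) and Bad 69.7 and 167, each more than 2-fold apart.

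Hour for hour against untreated cells, the 3 tested Bcl2l1 probe sets and AF065433_at of Bcl2l11 read lower relative to untreated at 2 h than at 24 h, with both drugs. AF065433_at of Bcl2l11 differed by -1.10 log2 at 2 h and -0.72 at 24 h with butyrate, and by -2.57 and -0.49 with aspirin. U34963_s_at of Bcl2l1 differed by -0.98 and -0.43 with butyrate and by -1.29 and -0.38 with aspirin. S78284_s_at of Bcl2l1 differed by -0.59 and -0.30 with butyrate and by -1.27 and 0.04 with aspirin. U72350_at of Bcl2l1 differed by -0.52 and 0.19 with butyrate and by -1.06 and -0.44 with aspirin. These are single arrays against single arrays, with no test. From 2 h to 24 h the untreated signal itself fell on each of these probe sets. On U34963_s_at and S78284_s_at it changed by -0.77 and -0.27 log2, where butyrate changed by -0.22 and 0.01. On U72350_at and AF065433_at it changed by -0.25 and -0.13, where butyrate changed by 0.46 and 0.25. The aspirin signal rose on each. With only the 2 h and 24 h arrays and time as a block, no probe set on the whole array passed in either comparison.

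Set directly against aspirin, butyrate gave a higher signal of 1 Bcl2l11 probe set and, short of the threshold, a higher one of 1 Bcl2l1 probe set and lower ones of Bok. This fit used the 10 treated arrays with the hour as a block. Leaving out either drug's array of an hour removes that hour from the comparison. Fits with 1 array left out therefore come in pairs with the same difference, and the 2 fits of a pair are not separate checks. Of the 13 member probe sets 1 passed (7.69%), where 25.2% of all probe sets did, and 6 had an unadjusted p under 0.05 (46.2%, against 40.5% of all). The member median was 0.08 log2, beside 0.10 over all probe sets.

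The 1 that passed was AF065431_s_at of Bcl2l11, higher with butyrate than with aspirin at all 5 hours, by 0.22 to 0.82 log2. The difference was at least 0.47 ± 0.12 log2 (SE, 95% interval 0.19 to 0.76, adjusted p = 0.0334, limma), a bound because 4 of 5 aspirin arrays were at the floor. The floor also removes the scatter among those 4 arrays, so the SE, interval and p-value do not measure it. The call was lost with quantile normalization (adjusted p = 0.0581), with median centring (0.109), and when the 6, 12, 16 or 24 h array of either drug was left out (up to 0.0912). AF065432_s_at and AF065433_at of Bcl2l11 were also higher with butyrate at 4 of 5 hours, by 0.69 log2 (adjusted p = 0.123, limma) and 0.65 ± 0.26 (95% interval 0.02 to 1.28, adjusted p = 0.116, limma) on average, and did not pass.

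**Figure D3:**
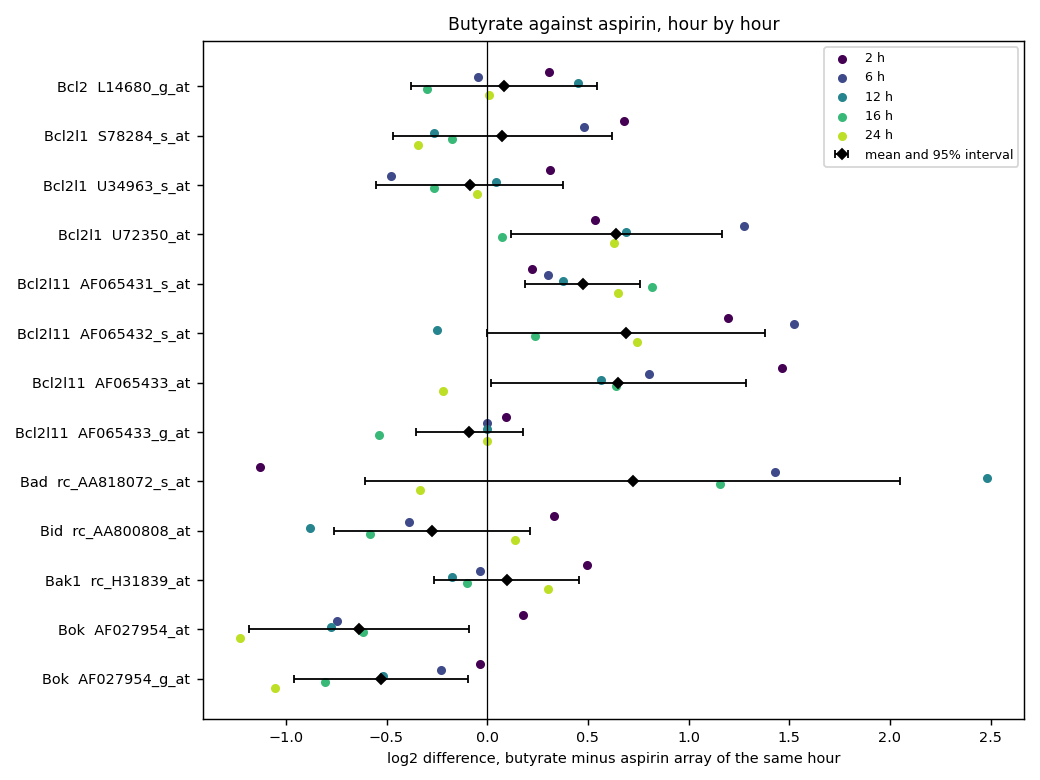
Log2 difference of the butyrate and the aspirin array of the same hour for each tested probe set (dots, 5 hours), with limma's mean and 95% interval. All 5 dots lie above 0 for U72350_at of Bcl2l1 and AF065431_s_at of Bcl2l11 and below 0 for AF027954_g_at of Bok.

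U72350_at of Bcl2l1 was the only member probe set on which all butyrate arrays lay above all aspirin arrays, which 10.3% of all probe sets did (15.6% on either side). On no member did all lie below, as 5.3% of all probe sets did. U72350_at was higher at all 5 hours, by 0.07 to 1.28 log2, and by 0.64 ± 0.21 on average (SE, 95% interval 0.12 to 1.16, adjusted p = 0.0772, limma). It passed with the floor at 182.2 (adjusted p = 0.0285), fell to 0.32 with quantile normalization (adjusted p = 0.254), and passed in 0 of 10 fits with 1 array left out (adjusted p up to 0.183). The other tested Bcl2l1 probe sets, S78284_s_at and U34963_s_at, differed by 0.08 and -0.09 (adjusted p = 0.827 and 0.76), so the probe sets of this gene disagreed between the drugs. Bok was lower with butyrate, on AF027954_g_at at 5 of 5 hours (-0.53 ± 0.18 log2, SE, 95% interval -0.96 to -0.10, adjusted p = 0.0768, limma) and on AF027954_at at 4 of 5 (-0.64 ± 0.22, 95% interval -1.18 to -0.09, adjusted p = 0.0866, limma). Both Bok probe sets passed with quantile normalization (adjusted p = 0.0381 and 0.0433) and with median centring (0.0309 and 0.0431), and when the 2 h array of either drug was left out. With any other array left out neither passed (adjusted p up to 0.205 and 0.214). Bad was higher with butyrate at 3 of 5 hours (0.72 ± 0.55 log2, SE, 95% interval -0.61 to 2.05, adjusted p = 0.372, limma). For Bid, Bak1 and Bcl2 the differences were -0.28, 0.10 and 0.08 log2 (adjusted p = 0.349, 0.651 and 0.768, limma), with both signs among the 5 hours.

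Over the hours of treatment, 1 member changed past the test: Bok rose with aspirin. Slopes were fitted over log2 hours on the 10 treated arrays. On AF027954_g_at the aspirin slope was 0.25 ± 0.05 log2 units per unit of log2 hours (SE, adjusted p = 0.0496, limma), and on AF027954_at it was 0.33 ± 0.08 (adjusted p = 0.0754, limma). The butyrate slopes of the same probe sets were -0.03 and 0.01 (adjusted p = 0.817 and 1), and the differences between the drugs' slopes, butyrate minus aspirin, were -0.28 ± 0.07 and -0.33 ± 0.12 (adjusted p = 0.086 and 0.191, limma) and did not pass. From 2 h to 24 h the difference was 0.93 and 1.25 log2 with aspirin, -0.09 and -0.16 with butyrate, and 0.60 and 0.79 in untreated cells, for AF027954_g_at and AF027954_at in that order. The untreated cells thus moved the same way on their 2 arrays. The call was lost without any single butyrate array and without the aspirin array of 2, 16 or 24 h (adjusted p up to 0.130), and with a lower floor, quantile normalization or median centring (0.065, 0.0658 and 0.0722).

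Across the family, 1 of 13 aspirin slopes passed (7.69%), beside 1.65% of all probe sets, and 5 had an unadjusted p under 0.05 (38.5%, against 19.7%). With butyrate 0 of 13 passed, beside 8.99% of all, and 1 had an unadjusted p under 0.05 (7.69%, against 24.1%). For the difference of slopes 0 of 13 passed, beside 1.73% of all, with 4 at an unadjusted p under 0.05 (30.8%, against 18.2%). Short of the threshold, the aspirin slope was 0.43 ± 0.11 on AF065433_at of Bcl2l11 (SE, adjusted p = 0.0861, limma) and 0.29 ± 0.08 on S78284_s_at of Bcl2l1 (SE, adjusted p = 0.0978, limma), both of which had their lowest aspirin signal at 2 h. With butyrate the nearest was AF065431_s_at of Bcl2l11, at 0.20 ± 0.06 (SE, adjusted p = 0.0863, limma).

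Patterns most like those of the family were sought among 3159 probe sets of other genes with no value at the floor, by Pearson's r of log2 values over the 12 arrays, for the 4 members with the largest butyrate changes. Bad was most like Dad1 (r = 0.878), Slc25a20 (0.852) and Rnaseh2a (0.844). Bcl2l11 (AF065433_at) was most like Gucy2e (r = 0.862), Ppp2r2a (0.834) and Sart1 (0.824). Bcl2l1 (S78284_s_at) was most like Zfp260 (r = 0.893), Actg1 (0.891) and Vdac1 (0.864), the last encoding a channel of the outer mitochondrial membrane. Bcl2 was most like Ppt2 (r = 0.834), Vegfa (0.832) and Cd55 (0.818). These are the highest of many correlations over arrays that share treatment and time, and they describe these arrays only.

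Among genes that act beside the family, Bnip3l, Diablo, Casp6 and Pak1 were among those that rose with butyrate and Slc25a5 among those that fell. From 7 lists of 109 genes, 51 were named alone by at least 1 probe set and 47 were tested, each by the brightest of these probe sets. With butyrate against untreated cells 6 rose and 3 fell (19.1%, beside 11.7% of all probe sets; none passed on the 2 h and 24 h arrays alone), and with aspirin 0 passed (beside 0.147%). With butyrate against aspirin 11 were higher and 4 lower (31.9%, beside 25.2%). The shares over all probe sets are not a like base. They include dim probe sets and several of the same gene, and the lists were written with earlier results of these data known. The median of the 47 was 0.01 log2 for butyrate against untreated, -0.05 for aspirin against untreated and 0.19 for butyrate against aspirin, beside 0.00085, -0.04 and 0.10 over all probe sets.

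Among other relatives of BCL2 (4 tested), 2 rose with butyrate. Bnip3l, whose product sits on mitochondria and marks them for autophagy, read 4209.1, 5625.6, 7177.6, 9932.2 and 11375.7 with butyrate, 4813.2, 3236.7, 4009.8, 4174.3 and 5387 with aspirin, and 2095.9 and 2729.2 in untreated cells. The butyrate arrays climbed with the hours and all treated arrays lay above the untreated ones. Its change was 1.59 ± 0.32 log2 against untreated cells (SE, adjusted p = 0.00903, limma; 0.103 without the untreated 2 h array) and 0.75 against aspirin (adjusted p = 0.0474). The call against aspirin was lost in 8 of 10 fits with 1 array left out (adjusted p up to 0.152), and it was kept in 4 of 17 alternatives in all. The 10 fits are paired by hour, as above, and are not 10 separate checks. Tmbim6, which encodes the endoplasmic reticulum protein BAX inhibitor, rose by 0.45 ± 0.13 log2 (SE, adjusted p = 0.0467, limma), a call lost in 8 of 12 fits that left out 1 array.

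Among the factors released by mitochondria and the parts of their pore (7 tested), 1 rose and 1 fell. Diablo, the gene of SMAC, read 2361.2, 3675.4, 3559.9, 3346.3 and 2679.9 with butyrate, 1647.4, 2086.4, 2237.3, 1914.5 and 1373.8 with aspirin, and 1508.2 and 1460.7 in untreated cells. Every butyrate array lay above every other array. The change was 1.05 ± 0.23 log2 against untreated cells (SE, adjusted p = 0.0138, limma; 0.064 without the untreated 2 h array and 0.0652 without that of 24 h) and 0.76 against aspirin (adjusted p = 0.00816), the latter kept when any 1 array was left out. Slc25a5, an adenine nucleotide carrier of the inner membrane, fell with butyrate by 0.82 log2 against untreated cells (adjusted p = 0.0215, limma; up to 0.118 when 1 array was left out) and was lower than with aspirin by the same amount, -0.82 (adjusted p = 0.0127). Its butyrate arrays read 14366.2, 12795.7, 9758.8, 8224 and 7751.3, against 18143.3 and 18231.9 in untreated cells. Against aspirin, Aifm1, the gene of apoptosis-inducing factor, was higher with butyrate by 0.36 log2 (adjusted p = 0.0255, limma) and Slc25a4, another adenine nucleotide carrier, was -0.22 (adjusted p = 0.0485, limma). With 1 array left out Aifm1 lost its call in 8 of 10 fits and Slc25a4 in 10 of 10, these fits again being paired by hour. Aifm1 also lost it with median centring (0.22, adjusted p = 0.147), and Slc25a4 with quantile normalization (-0.037, adjusted p = 0.624).

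**Figure D4:**
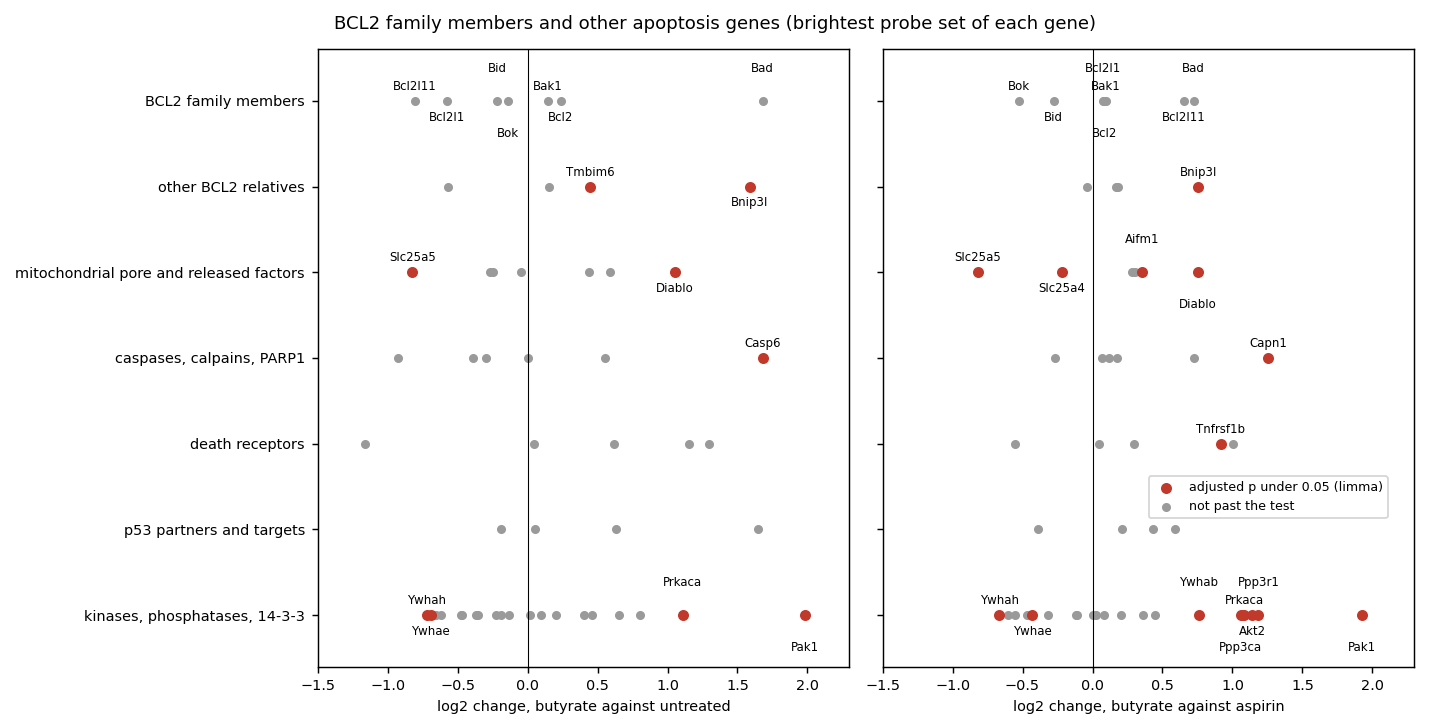
Log2 change of the BCL2 family members and of 47 other apoptosis genes by list, butyrate against untreated on the left and butyrate against aspirin on the right (brightest probe set of each gene, red where limma's adjusted p is under 0.05). No member's brightest probe set passed, while Casp6, Bnip3l, Diablo, Prkaca and Pak1 rose by 1.05 to 1.98 with butyrate.

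Of 6 caspases and substrates tested, 1 rose. Casp6, an executioner caspase, read 1700.8, 2529.8, 1624, 2416.8 and 1683.7 with butyrate, 1450.5, 1668.3, 1997.6, 2028.4 and 2295.4 with aspirin, and 396.8 and 935.3 in untreated cells. All treated arrays lay above both untreated ones. The butyrate change was 1.68 ± 0.32 log2 (SE, adjusted p = 0.00646, limma; 1.06, adjusted p = 0.0724, without the untreated 2 h array), and the aspirin change of 1.61 did not pass (adjusted p = 0.101). Capn1, a calcium-dependent protease, was higher with butyrate than with aspirin by 1.26 log2 (adjusted p = 0.0056). Of 6 inhibitors of apoptosis listed, only Birc2 was named alone by a probe set, and it was too dim to be tested.

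None of 5 death receptor genes passed against untreated cells. Tnfrsf1b, a TNF receptor, was at least 0.92 log2 higher with butyrate than with aspirin (adjusted p = 0.00688), with all aspirin arrays at the floor. With the floor at 182.2 the difference was 0.033 (adjusted p = 0.473). None of 4 genes of the p53 list passed: the largest butyrate changes were those of Cdkn1a, the gene of the cell cycle inhibitor p21 (1.65 log2, adjusted p = 0.117, limma), and Ccng1 (0.63, adjusted p = 0.058). The size of the Cdkn1a change depends on the floor. Both its untreated arrays (-275.6 and -140.2) and its butyrate array of 2 h (4.4) lay under it. The other tested probe set of Cdkn1a changed by 0.12 log2 with butyrate (adjusted p = 0.811, limma).

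Of 21 kinases, phosphatases and 14-3-3 proteins that act on family members, 2 rose and 2 fell with butyrate on their brightest probe sets. Pak1, a kinase that phosphorylates BAD, read 204.7, 414.5, 410.6, 488.2 and 349.1 with butyrate, 68.5, 22.7, 66.3, 6.7 and 109.2 with aspirin, and 15.9 and 23.7 in untreated cells, both at the floor. It rose by at least 1.98 ± 0.30 log2 (SE, adjusted p = 0.00177, limma) and was at least 1.93 higher than with aspirin (adjusted p = 0.00637), and both calls were kept when any 1 array was left out. Prkaca, the catalytic subunit of protein kinase A, which also phosphorylates BAD, read 1582.8 to 3956.9 with butyrate, 1249.1 to 1371.3 with aspirin, and 1257 and 1290.5 in untreated cells. It rose by 1.11 ± 0.28 log2 (SE, adjusted p = 0.0222, limma; up to 0.108 when 1 array was left out). The other tested probe set of Prkaca was higher by 0.84 (adjusted p = 0.264, limma) and did not pass. Ywhae and Ywhah, 2 of the 14-3-3 proteins that hold BAD in the cytosol, fell with butyrate by 0.69 and 0.72 log2 (adjusted p = 0.0135 and 0.0136, limma; up to 0.0641 and 0.107 when 1 array was left out). Their other tested probe sets read -0.72 and -0.43 (adjusted p = 0.312 and 0.178) and did not pass. Ywhaz, another 14-3-3 gene, passed on D30740_at (-0.60, adjusted p = 0.0472, limma). It did not pass on its brightest probe set (-0.47, adjusted p = 0.0585) or on D30740_g_at (-0.69, adjusted p = 0.0506).

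Against aspirin, 6 genes of this list were higher with butyrate and 2 lower. Besides Pak1 and Prkaca (1.09 log2, adjusted p = 0.0135, limma), the higher ones were the survival kinase gene Akt2 (1.14, adjusted p = 0.037), the calcineurin subunits Ppp3ca (1.06, adjusted p = 0.0119) and Ppp3r1 (1.19, adjusted p = 0.0169), and Ywhab (0.76, adjusted p = 0.0331). Calcineurin removes phosphate from BAD. The lower ones were Ywhae (-0.43, adjusted p = 0.0384) and Ywhah (-0.67, adjusted p = 0.0129), on their brightest probe sets. Their other probe sets did not pass, at -0.05 for Ywhae (adjusted p = 0.835) and -0.46 for Ywhah (adjusted p = 0.0764), and neither did that of Akt2, at 0.30 (adjusted p = 0.416). Those of Prkaca and Ppp3r1 passed, at 1.08 and 1.99 (adjusted p = 0.0255 and 0.0163, limma). Mapk9 passed on L27112_s_at (0.67, adjusted p = 0.0343, limma) but not on its brightest probe set (0.45, adjusted p = 0.254). With 1 array left out the calls of Akt2, Prkaca, Ywhab and Ywhae were each lost in 8 of 10 fits, those of Ppp3ca and Ywhah in 6 and that of Ppp3r1 in 4. Here too the 10 fits are paired by hour. With quantile normalization Akt2 was 0.80 (adjusted p = 0.128) and Ywhae -0.30 (adjusted p = 0.129). Akt2 read 1481.4 and 270 in untreated cells, against 293.6 to 512.6 with butyrate and 123.3 to 263.7 with aspirin.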

How the data were processed

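Expression in 12 arrays was read from the deposited value table, 1 column per array. The deposited values were taken to be intensities from their own range; how the authors made them is not given in the sources used here, and the arrays were not normalized again. The 59 control probe sets were left out. Intensities below the absolute 10th percentile (90.91, log2 6.51) were raised to it before log2, because the 10th percentile itself was negative, and the 2622 probe sets whose mean log2 fell short of the 30th percentile (6.54) were dropped. On each array 13.4 to 21.1% of tested values were at the floor. Between any 2 arrays at most 0.114% of values were identical, so none was a duplicate. A change is "at least" where the lower group had at least 1 of 2 untreated arrays, or 3 or more of 5 treated arrays, at the floor while the other group lay wholly above it.

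Probe sets were named from the platform annotation, and 7 of 7 member symbols were the same in RefSeq. Tests used limma 3.58.1 in R 4.3.3 (lmFit, eBayes with a variance trend): each drug against untreated on all 12 arrays (9 residual degrees of freedom), butyrate against aspirin on 10 arrays with time as a block (4), and slopes over log2 hours (6), with Benjamini-Hochberg adjustment over 6118 probe sets and a threshold of 0.05. On simulated data for butyrate against untreated (6118 probe sets, 200 of them changed), 34.6% of 2-fold and 82% of 4-fold changes were found. For butyrate against aspirin, also with 200 changed, they were 43.2% and 92%. These rates describe that setting only. In the deposited data 716 and 1540 probe sets passed in these comparisons, and many values were tied at the floor. The share of changes found there was not tested. All member probe sets are described. Of the other lists, the genes called in a comparison of the groups are named or, where a list had none, the 2 with the largest butyrate change. The members and lists were chosen with earlier results of these data known. Alternatives were another floor, no filter, quantile normalization, median centring, no variance trend, other time terms and leaving out each array.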

Additional observations from a re-analysis of the deposited data

Results flagged for a closer look

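Of 26 groups of 5 arrays (13 member probe sets, 2 drugs), 4 held an array that stood apart from the others by Dixon's ratio, the gap to the nearest array over the group's range of log2 values. Chance alone flags about 1 in 20 groups of untied values. That rate does not hold where 4 of 5 arrays are tied at the floor, since the ratio is then 1 by construction. For U72350_at of Bcl2l1 the butyrate array of 24 h (402.1) was the highest, with a ratio of 0.74 against a critical value of 0.71. For AF065431_s_at of Bcl2l11 the aspirin array of 24 h (112.4) was the only aspirin array above the floor, which gives a ratio of 1. For AF065433_g_at of Bcl2l11 the butyrate array of 2 h (97) and the aspirin array of 16 h (132.1) were likewise the only ones of their drug above the floor, each with a ratio of 1.

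The effects of the drugs differed by a test of the difference itself for AF065431_s_at of Bcl2l11, at least 0.47 log2 higher with butyrate than with aspirin (adjusted p = 0.0334, limma), at 5 of 5 hours. That p-value does not measure the scatter of the 4 aspirin arrays tied at the floor.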

How the results depend on the processing

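The 2 untreated arrays limit every comparison with untreated cells, and the floor limits the dim Bcl2l11 and Bad probe sets. Of 1407 refits of single values the sign turned in 51, and none of those values had passed. In 151 refits a value that had passed no longer did, and in 19 a value that had not passed did. The number of member probe sets called moved as follows. Butyrate against untreated gave 1 rather than 0 with the floor at the absolute 5th or 15th percentile (182.2 or 46.3), quantile normalization, median centring or no variance trend, in each case U34963_s_at of Bcl2l1, and 0 to 2 when 1 array was left out. Aspirin against untreated gave 0 to 1 when 1 array was left out. Butyrate against aspirin gave 2 rather than 1 with quantile normalization, median centring and no time block, and 0 to 3 when 1 array was left out. With the higher floor, AF065431_s_at of Bcl2l11 could not be tested and U72350_at of Bcl2l1 was called in its place. The aspirin slope gave 0 rather than 1 with the lower floor, quantile normalization and median centring, and 0 to 1 when 1 array was left out.

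Values that turned sign for butyrate against untreated were AF065433_g_at (-0.085 with median centring, -0.021 with time as a factor), Bid (0.093 on the 2 h and 24 h arrays), Bak1 (-0.020 with quantile normalization, -0.027 with time as a factor) and AF027954_at of Bok (-0.072 with quantile normalization, -0.0060 with median centring). For aspirin against untreated they were AF065431_s_at (0.060 on the 2 h and 24 h arrays, 0.040 with time as a factor), AF065432_s_at (-0.25 with the lower floor, -0.12 on the 2 h and 24 h arrays), Bid (-0.14 on those arrays) and Bak1 (-0.27 on those arrays, -0.12 with time as a factor). For butyrate against aspirin they were, with quantile normalization and median centring, Bcl2 (-0.24 and -0.050), S78284_s_at of Bcl2l1 (-0.22 and -0.059) and Bak1 (-0.091 and -0.037), and AF065433_g_at (0.024 with the lower floor). The butyrate slope of AF027954_at was -0.029 with quantile normalization, and the slope difference of AF065431_s_at -0.077 with the lower floor. With 1 array left out, values that crossed 0 ranged, against untreated with butyrate, from -0.45 to 0.014 for Bid, -0.084 to 0.38 for Bak1, -0.30 to 0.49 for AF027954_at and -0.44 to 0.16 for AF027954_g_at. With aspirin they ranged from -0.13 to 0.061 for AF065431_s_at, -0.37 to 0.52 for AF065432_s_at, -0.17 to 0.29 for Bid and -0.18 to 0.28 for Bak1. Between the drugs they ranged from -0.0073 to 0.18 for Bcl2, -0.075 to 0.18 for S78284_s_at, -0.19 to 0.010 for U34963_s_at, -0.13 to 0.023 for AF065433_g_at and -0.0029 to 0.16 for Bak1. Butyrate slopes ranged from -0.047 to 0.15 for AF027954_at, -0.085 to 0.063 for S78284_s_at and -0.15 to 0.066 for AF065433_at.

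Over all probe sets, the 716 calls of butyrate against untreated became 317 with time as a factor and 0 on the 2 h and 24 h arrays (limma, time blocked; 577 had an unadjusted p under 0.05), and 310 to 1166 when 1 array was left out. The 9 of aspirin became 18 with the higher floor, 0 with quantile normalization, 1 with median centring, 5 without the variance trend, and 0 with time as a factor or on the 2 h and 24 h arrays (limma; 631, 615 and 293 at an unadjusted p under 0.05 where the count was 0, for quantile normalization, time as a factor and the 2 h and 24 h arrays), and 1 to 306 when 1 array was left out. Butyrate against aspirin gave 241 to 1645 and the butyrate slope 81 to 541 when 1 array was left out. The 101 aspirin slopes became 242 with the lower floor and 6 to 231 when 1 array was left out, and slope differences ranged from 3 to 119. Of the other apoptosis genes, 9 butyrate calls became 4 with time as a factor and 0 on the 2 h and 24 h arrays, and 4 to 16 when 1 array was left out. Aspirin gave 0 to 3 and butyrate against aspirin 4 to 17. Scaling moved the split of higher and lower calls: with butyrate 476 and 240 as deposited, 415 and 287 with quantile normalization and 376 and 356 with median centring, and for butyrate against aspirin 952 and 588, 637 and 581, and 741 and 906. Median centring moved the median of all probe sets to -0.10 for butyrate against untreated and -0.04 for butyrate against aspirin. The cause of these changes was not tested. The labels carry no replicate numbers, and the arrays were paired by hour: the hour was the block in butyrate against aspirin (without it 1535 probe sets rather than 1540 passed) and in the fits on the 2 h and 24 h arrays.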
